A study of Cenchrus americanus with 9 samples.

Results

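The genes described here were expressed in crown and primary root tips of pearl millet and were low in lateral roots. A gene was included when its normalised count was at least 100 in all 3 crown and all 3 primary root libraries, and when the lowest of those 6 values was at least 2 times the highest of the 3 lateral root values. A further limit kept out genes that also stepped down between crown and primary roots, by requiring that the lowest crown root value be below 1.5 times the highest primary root value. Each root type also had to hold at least 1 value above 0. These conditions were met by 43 of the 19754 genes of the table, or 0.218%, which are called the members below. All 9 values of a gene were used to choose it, so the low lateral root levels of the members are described without a test.

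The roots came from Tift23DB, the reference genotype of pearl millet, grown for 15 days in rhizotrons, flat growth boxes with a clear plate through which roots can be seen. The 3 root types sampled, with no treatment named in the labels, were lateral roots borne on primary roots, crown root tips and primary root tips, the tips being the last 5 cm. Each root type had 3 replicates, and each replicate pooled the roots of 3 plants. The deposited values are counts normalised between libraries, and counts recovered from them summed to 39739052 to 64062081 per library. The paper's results call the lateral roots long lateral roots. The length of lateral root taken is not stated, so root type and the part of the root sampled cannot be told apart. In RNA from whole root pieces, fewer cells of a type and less RNA per cell cannot be told apart either.

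In cereals the primary root grows from the embryo and crown roots arise later from stem nodes, whereas lateral roots branch from a parent root and begin with divisions of cells around its vascular tissue. A root tip several centimetres long holds the root cap, the meristem, the elongation zone and the young differentiation zone, in which root hairs and vascular tissue mature. Lateral roots are as a rule thinner than the root that bears them. Genes are given here by the identifiers of the deposited table, which does not pair them with gene names or functions. No gene annotation was used, so members are grouped by level and pattern, their functions are not described, and the root type labels could not be checked against marker genes.

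The condition on level alone was met by 14311 genes. In 66 of these, every lateral root library was at most 50% of the lowest crown or primary root library, and the limit between crown and primary roots then set 23 aside and left the 43 members. The mirror patterns were unequal in number. By the same level and fold limits, 454 genes were high in lateral roots against both other types, 145 were low in crown roots, 50 were high in crown roots, 7 were low in primary roots and 0 were high in primary roots. The libraries required to be higher came from a single root type in a high pattern, but from both other types in a low pattern. Counts of high and low patterns are therefore not like for like. These counts are a description and were not tested.

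All 43 members had values above 0 in all 9 libraries. Their lateral root mean was between 4.49% and 36.7% of their mean over the 6 crown and primary root libraries, with a median of 19.2%. As a fold, the mean of the other root types was 2.73 to 22.3 times the lateral root mean, with a median of 5.21. It was at least 3-fold in 40 members, at least 5-fold in 25 and at least 10-fold in 6. The gap between libraries was narrower than that between means: the lowest crown or primary root library was at least 3 times the highest lateral root library in 12 members and under 2.5 times in 24. The heat map of the members shows the 3 lateral root libraries apart from the other 6 in every row, as the rule requires, with a gradient in depth from top to bottom.

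**Figure D1:**
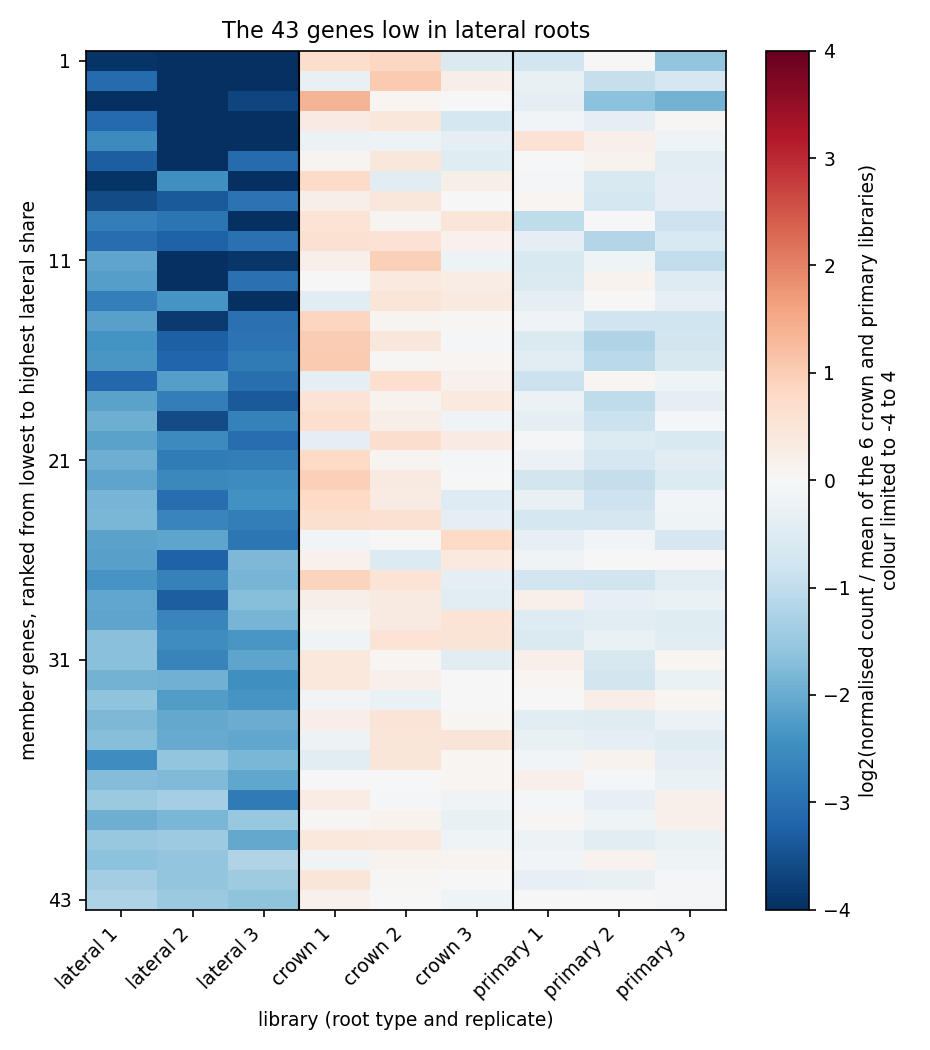
Each row is 1 of the 43 members and each column a library, and the colour is the log2 ratio of the normalised count to the member's mean over the 6 crown and primary root libraries. Rows run from the lowest lateral root mean, 4.49% of the other libraries, to the highest, 36.7%, and crown root columns are mostly redder than primary root columns.

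The members covered a wide range of expression. Mean normalised counts ran from 13.2 to 7858 in lateral roots, with a median of 212. In crown roots they ran from 132 to 80078 with a median of 1349, and in primary roots from 143 to 31655 with a median of 956. These values were not divided by gene length and so mix length with expression. The median member stood at the 29.1th percentile of all genes in lateral roots, against the 66.0th in crown and the 58.6th in primary roots. Low does not mean unexpressed in most members, since the median lateral root mean was 212. Still, 15 members had a lateral root mean under 100, and 7 had at least 1 lateral root library under 20.

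The members together made up a small part of each library. Their summed normalised count was 55443, 34889 and 41048 in lateral root replicates 1 to 3, against 393930, 294321 and 220313 in the crown root libraries and 181252, 138324 and 177152 in the primary root libraries, in order of replicate. This was 0.0890% ± 0.0215 of the library total in lateral roots, 0.541% ± 0.132 in crown roots and 0.337% ± 0.0384 in primary roots (SD, n = 3 each). The 5 most abundant members held 61.6% of the sum in lateral roots, 69.2% in crown roots and 63.2% in primary roots. With those 5 left out, the sum was 14941 to 19227 in lateral, 76293 to 105071 in crown and 56118 to 63424 in primary root libraries. The rule itself places the lateral root sums below the others. The crown root range lay above the primary root range, which the rule does not require.

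Pgl_GLEAN_10010560 kept the smallest share of its level in lateral roots. Its normalised counts were 74.7, 7.78 and 70.7 in lateral root replicates 1 to 3, against 1841, 2040 and 768 in crown roots and 666, 1124 and 383 in primary roots. The lateral root mean was 4.49% of the mean of the other 6 libraries, a 22.3-fold difference, and the highest lateral root value lay 5.13-fold under the lowest other value. Its log2 difference, on the log2(normalised count + 1) scale, was -5.30 between lateral and crown roots and -4.19 between lateral and primary roots (standard error 0.755 for each). Lateral root replicate 2 stood well below the other lateral root libraries, and crown and primary root libraries overlapped.

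Pgl_GLEAN_10010904 came next, at 5.56% of the other libraries. It had 52.0, 12.5 and 8.32 in lateral roots, against 351, 898 and 508 in crown roots and 356, 228 and 274 in primary roots. Here lateral root replicate 1 was the high library of its type, and the lowest crown root value fell just under the highest primary root value. Its log2 differences were -4.86 between lateral and crown roots and -3.91 between lateral and primary roots (standard error 0.578 for each).

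At the level condition, the nearest member inside had a lowest crown or primary root value of 117.53, and the nearest gene outside had 88.14. At the fold limit, the nearest member inside had a lowest other value 2.03 times its highest lateral root value, and the nearest gene outside had 1.98 times. Within 5% of this limit lay 6 members above it and 9 other genes below it. At the limit between crown and primary roots, the nearest values of the lowest crown over the highest primary root library were 1.472 inside and 1.503 outside. The 23 genes set aside there had a median lateral root mean of 24.5% of the primary root mean, and the members had 24.4%.

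Because the rule had used all libraries, it was applied again to 2 libraries of each root type, and the remaining library of each type was then read. With replicate 1 of every root type held out, 129 genes were chosen, and in 51 of them, 39.5%, the held-out lateral root value was at most 50% of both held-out crown and primary root values. With replicate 2 held out this was so for 60 of 88 genes, or 68.2%, and with replicate 3 for 42 of 64, or 65.6%. The same held for 4.03%, 4.50% and 5.51% of all genes, and for 2.46%, 2.34% and 3.45% of the genes that passed the condition on level in the libraries used to choose.

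By any margin, the held-out lateral root value was below both others in 89.9%, 96.6% and 95.3% of the chosen genes, against 38.0%, 38.8% and 44.0% of the genes that passed the condition on level. The median held-out lateral root value was 41.7%, 29.3% and 25.5% of the mean of the held-out crown and primary root values, against 95.9%, 96.7% and 97.4% for the genes at that level. Most chosen genes were thus lower in lateral roots in libraries that had no part in the choice, though not always by the factor the rule required. The chosen lists overlap, holding 33, 41 and 33 members and 96, 47 and 31 other genes. The members among them met the required factor in the held-out libraries by definition, since the full rule had used those libraries. The shares thus describe genes chosen on part of the libraries and are no test of the members. The size factors were set on all libraries together.

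**Figure D2:**
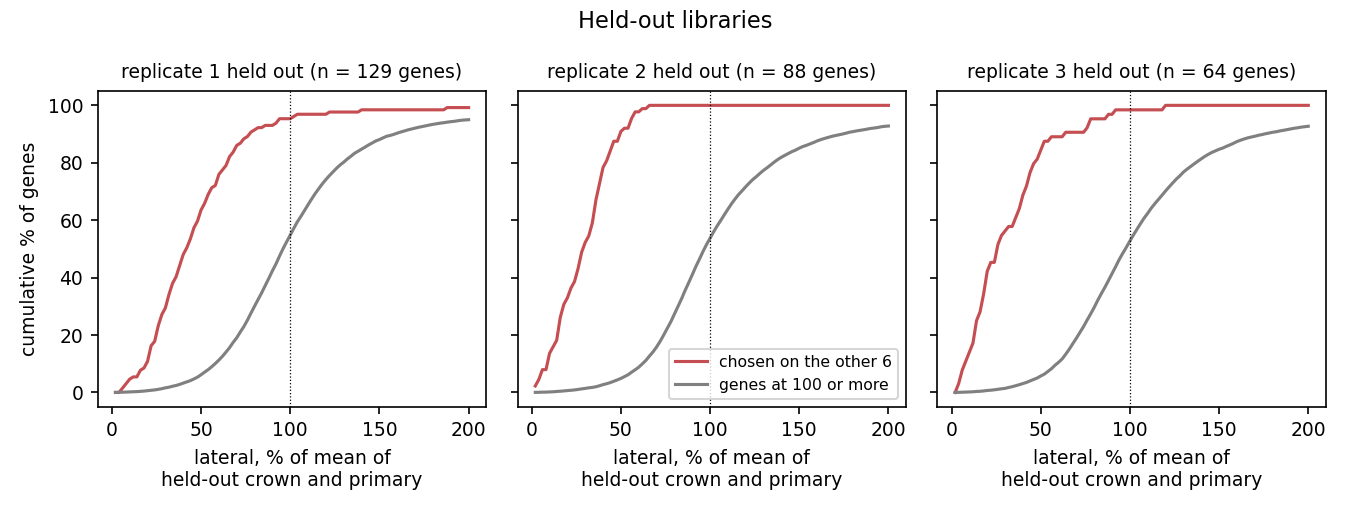
Each panel gives the cumulative share of genes (y axis, %) by the level of the held-out lateral root library as a percent of the mean of the held-out crown and primary root libraries (x axis), for genes chosen on the other 6 libraries and for all genes at a normalised count of 100 or more there. The curve of the chosen genes lies to the left of the other in each panel, and least so with replicate 1 held out, where the median was 41.7%.

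For the members, lateral root replicate 1 was the lateral root library nearest to the other root types. It was the highest of the 3 lateral root libraries in 26 of the 43 members, replicate 3 in 10 and replicate 2 in 7, while among the 14311 genes at the same level replicate 1 was highest in 36.5%. The median member had 22.8% of its crown and primary root mean in lateral root replicate 1, 15.8% in replicate 2 and 14.6% in replicate 3. The same medians over the genes at this level were 95.5%, 96.7% and 96.6%. Without lateral root replicate 1 the rule would have chosen 112 genes, the 43 members and 69 others. Leaving out primary root replicate 2 gave 74 genes, 42 of them members, and each other library left out gave between 38 and 59 genes.

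Between crown and primary roots the members leaned to crown roots, although the rule limits only that direction. The crown root mean was above the primary root mean in 40 of 43 members, against 49.1% of all genes. The ratio of crown to primary root means had a median of 1.56 and ran from 0.705 to 3.38. It was at least 1.5 in 22 members and at least 2 in 8, against 8.06% and 1.93% of the genes at the same level. In 17 members, or 39.5%, every crown root library was above every primary root library, which held for 15.1% of all genes. In 2 members every crown root library was below every primary root library (14.2% of all genes), and in the other 24 the libraries overlapped. With the libraries scaled to equal totals, an alternative chosen after seeing the data, the crown root mean was higher in 33 members, against 31.8% of all genes.

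Other genes with a low lateral root mean leaned the same way, though the way they were chosen favours this. Among 536 further genes at the same level whose lateral root mean was at most 50% of the mean of the other 6 libraries, the crown root mean was above the primary root mean in 489, or 91.2%, with a median ratio of 1.62. The members stood at 93.0%. The 536 genes were chosen on a mean that includes crown root values, which by itself favours genes high in crown roots. They need not be low against primary roots, so their share is a description and no test of the lean. In the held-out libraries the crown root value was above the primary root value in 76.0%, 93.2% and 75.0% of the chosen genes with replicate 1, 2 and 3 held out, against 52.8%, 54.3% and 53.2% of the genes at that level. In the plot of these ratios crown root values enter both axes, so the slope of the cloud of genes is not a measurement of its own.

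**Figure D3:**
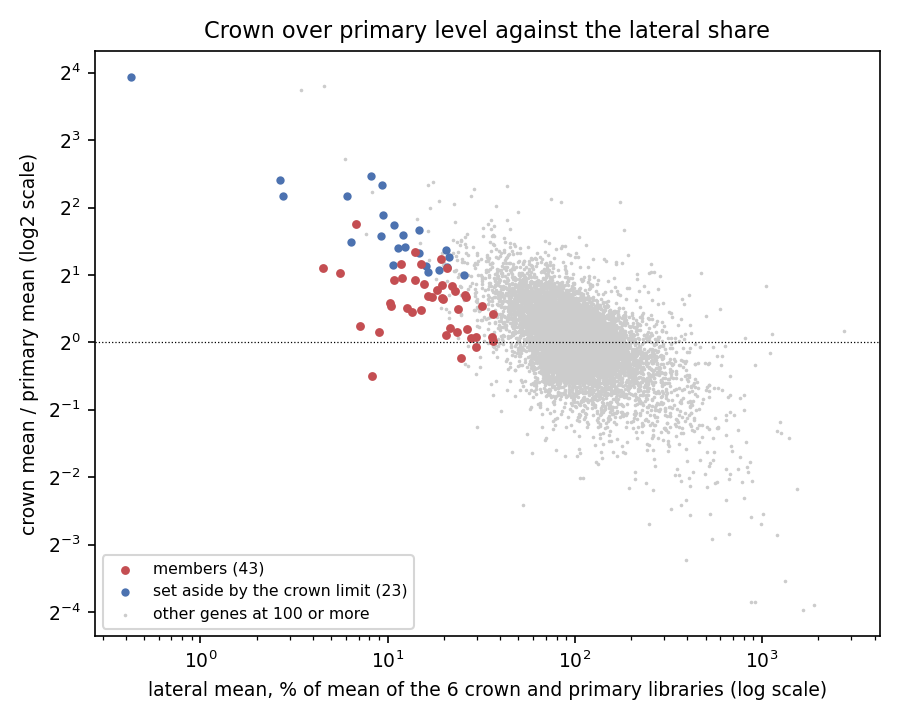
Each point is 1 of the 14311 genes at a normalised count of 100 or more in all crown and primary root libraries, placed by its lateral root mean as a percent of the mean of the other 6 libraries (x axis, log scale) and by the ratio of crown to primary root means (y axis, log2 scale). The 43 members lie to the left at ratios from 0.705 to 3.38, and the 23 genes set aside by the limit between crown and primary roots lie mostly above them.

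The largest positive log2 differences between crown and primary roots are given first. Pgl_GLEAN_10036952 had 5387, 2200 and 2108 in crown roots, against 1633, 675 and 559 in primary roots, a log2 difference of 1.78 (standard error 0.424). Its lateral root values were 130, 128 and 165, close together beside a spread within crown roots and within primary roots of over 50% of the mean. In both of those types replicate 1 was the high library. Pgl_GLEAN_10009308, the most abundant member, had 111815, 75836 and 52584 in crown roots, against 37474, 24158 and 33334 in primary roots, a log2 difference of 1.295 (standard error 0.294). In lateral roots it had 10608, 5766 and 7198, and its mean there stood at the 93.7th percentile of all genes. All crown root values of both genes were above all of their primary root values.

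At the other end, Pgl_GLEAN_10011244 and Pgl_GLEAN_10001491 were the members in which all crown root values lay below all primary root values. Pgl_GLEAN_10011244 was a low gene, with 136, 138 and 121 in crown roots, against 235, 182 and 142 in primary roots, a log2 difference of -0.47 (standard error 0.585). In lateral roots it had 27.1, 3.11 and 9.36, and the lowest of these corresponds to 4 recovered counts. Pgl_GLEAN_10001491 had 1437, 1300 and 1533 in crown roots, against 1544, 1855 and 1629 in primary roots, a log2 difference of -0.23 (standard error 0.194), and 508, 331 and 303 in lateral roots. For both, the difference between crown and primary roots was small beside that from lateral roots. The third member with a crown root mean below its primary root mean was Pgl_GLEAN_10029144, named after its values were seen, with a ratio of 0.954 and overlapping libraries.

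**Figure D4:**
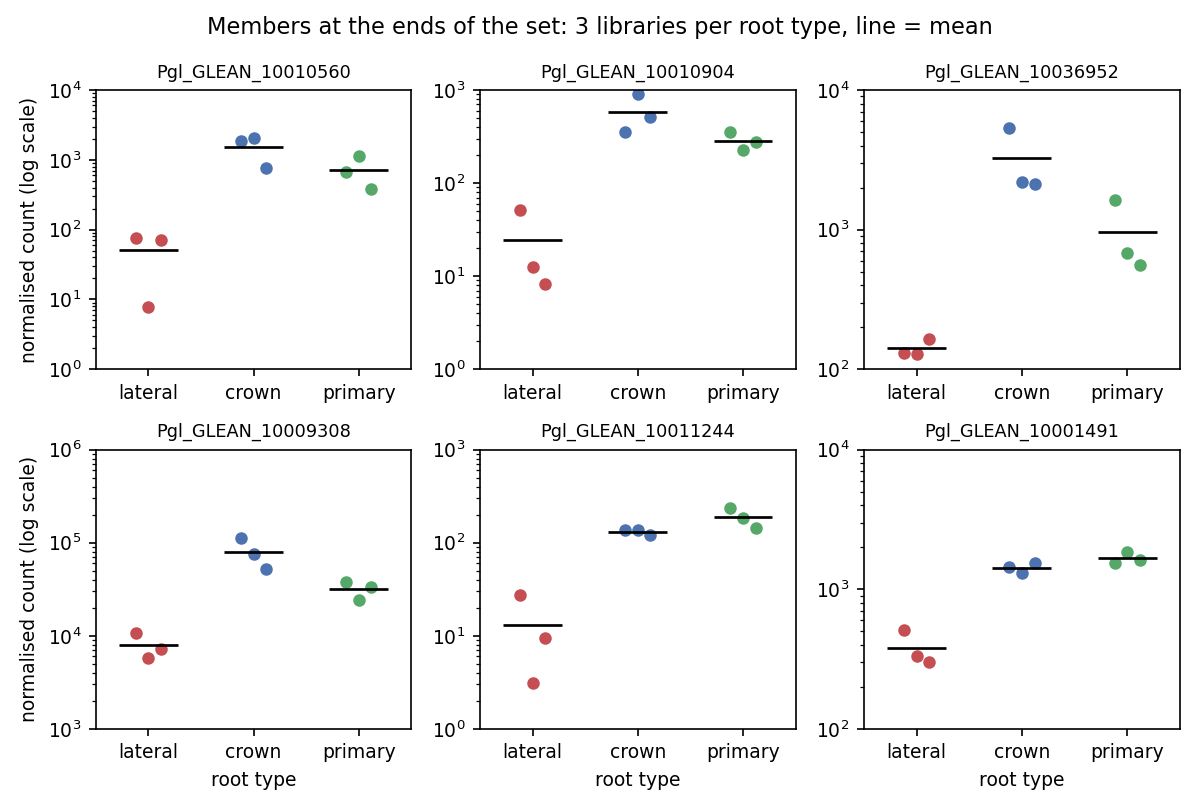
Normalised counts (log scale) of the 6 members at the ends of the set, with 1 point per library and a line at the mean of each root type. In each panel the 3 lateral root points lie under all crown and primary root points, as the rule requires, and the order of crown and primary roots differs between panels.

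The fit across all genes with limma called a gene when its adjusted p (Benjamini-Hochberg over 19754 genes) was under 0.01 and its log2 fold change was 1 or more in size. Between lateral and crown roots all 43 members were called lower in lateral roots, against 4.84% of all genes. Between lateral and primary roots 42 were called lower in lateral roots, against 1.08% of all genes. The exception, named after its values were seen, was Pgl_GLEAN_10036322, with 53.1, 57.6 and 20.8 in lateral roots, against 181, 140 and 133 in crown roots and 140, 118 and 170 in primary roots, which is also the member nearest to the level condition. The rule used these contrasts, so the counts describe how it relates to the thresholds and nothing is read from them. The median log2 difference of the members was -2.78 from crown roots and -2.05 from primary roots, against 0.02 and -0.00387 over all genes. The count from primary roots was 22 or 23 when lateral root replicate 3 or 2 was left out, 25 or 23 when primary root replicate 1 or 3 was left out, and 22 when limma assumed no mean-variance trend. In these fits the share of all genes called lower in lateral roots dropped as well, to between 0.349% and 0.435%.

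Between crown and primary roots 1 member was called higher in crown roots, against 0.400% of all genes, and 0 were called lower, against 1.18%. At an unadjusted p under 0.05 in limma, 18 members were higher in crown roots, against 12.4% of all genes, and 0 lower, against 11.9%. At an adjusted p under 0.05 with the same fold limit, 5 were higher in crown roots, against 1.41% of all genes. Crown and primary root values entered the rule, so these counts are a description too. The median log2 difference was 0.60 over the members, against -0.02 over all genes. The gene called was Pgl_GLEAN_10019733, which was named after its values were seen. It had 9436, 9147 and 6859 in crown roots, against 4661, 2733 and 4001 in primary roots, and 748, 647 and 784 in lateral roots. It is also the member nearest to the limit between crown and primary roots. In 13 of 20 alternatives 0 members were called here, among them voom, both other scalings and the removal of any 1 library other than crown root replicate 3.

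The spread between replicates of one root type was wide in many members. The median coefficient of variation was 32.0% in lateral roots, 28.8% in crown roots and 20.1% in primary roots, against 12.5%, 16.1% and 11.4% over the 14311 genes. Those genes share the level condition in crown and primary roots only, so in lateral roots the members are set beside genes of higher level. The coefficient in lateral roots ran from 6.85% to 99.4% and was over 50% in 10 members. Members with a mean under 1000 over the crown and primary root libraries had a median of 47.2% in lateral roots, those from 1000 to under 5000 had 30.6%, and those of 5000 or more had 18.6%. The spread within lateral roots was thus widest in the 20 members of lowest level. The share kept in lateral roots was less tied to level, with medians of 16.1%, 21.7% and 19.2% over the same 20, 14 and 9 members.

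In some members this spread followed that of the most abundant member. For each member the deviations of the 9 libraries from their root type means were correlated with those of the most abundant member, Pgl_GLEAN_10009308. Pearson's r had a median of 0.478 over the other 42 members, ran from -0.738 to 0.963 and was below 0 in 11, whereas over the genes at this level the median was 0.0367 and 48.0% were below 0. An r over 0.8 was found for 8 of 42 members, against 3.17% of the genes at this level. Of the 8 other members with a mean of 5000 or more, 4 were over 0.8, against 5.06% of 2192 genes of that level. The deviations come from the same 9 libraries for all genes, each gene has few independent deviations, and no p is given. The genes at this level had a smaller spread between replicates than the members, so their r values are not like for like. Members were not correlated with each other here.

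**Figure D5:**
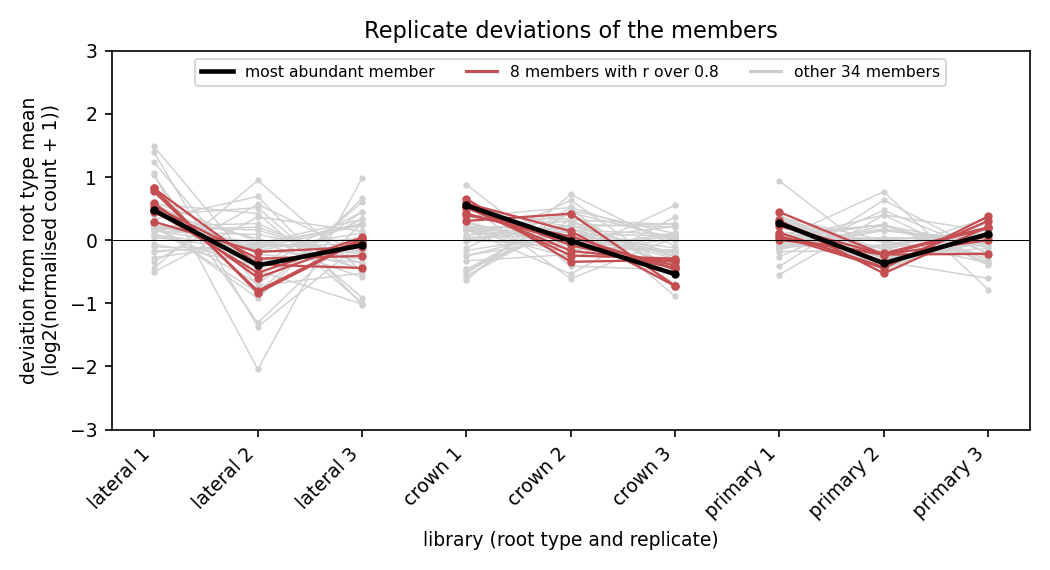
Deviation of each library from its root type mean on the log2(normalised count + 1) scale (y axis) by library (x axis), for the most abundant member, the 8 members whose deviations had a Pearson's r over 0.8 with it, and the other 34. Lines join the libraries of 1 gene within a root type, whose order has no meaning. The 8 follow the most abundant member because they were chosen for it.

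Among the identifiers, 2 pairs of members carry consecutive numbers, and they were named after their values were seen. Whether such numbers mark neighbouring genes or similar copies was not tested, and reads of near-identical copies could have been divided between them. Pgl_GLEAN_10032847 and Pgl_GLEAN_10032848 had similar levels, with means over the 9 libraries of 1240 and 1036. Pgl_GLEAN_10032847 had 496, 479 and 384 in lateral roots, against 1654, 1628 and 1715 in crown roots and 1888, 1551 and 1362 in primary roots. Pgl_GLEAN_10032848 had 552, 465 and 427 in lateral roots, against 1471, 1333 and 1162 in crown roots and 1336, 1308 and 1266 in primary roots, and it kept the largest share of any member in lateral roots, 36.7%. In both genes crown and primary roots overlapped and were nearly level, with ratios of 1.04 and 1.01.

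The pair Pgl_GLEAN_10032156 and Pgl_GLEAN_10032157 differed in level by 117-fold. Pgl_GLEAN_10032156 had 5749, 3225 and 3323 in lateral roots, against 38946, 24267 and 21474 in crown roots and 19170, 14053 and 16412 in primary roots. Pgl_GLEAN_10032157 had 13.0, 35.8 and 12.5 in lateral roots, against 333, 147 and 232 in crown roots and 192, 129 and 155 in primary roots. Their deviations within root types had a Pearson's r of 0.0776 over 9 libraries, against 0.439 for Pgl_GLEAN_10032847 and Pgl_GLEAN_10032848. Few of these deviations are independent, and the lateral root values of Pgl_GLEAN_10032157 are low, so little can be read from either r. Crown roots lay above primary roots in every library for the abundant gene only.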

How the data were processed

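RNA was sequenced from 9 libraries, 3 per root type, on an Illumina platform. By the methods and the submitters' processing notes, the authors cleaned reads with CutAdapt 3.1, mapped them to ASM217483v2 with Hisat2 2.0.1, assembled transcripts with Stringtie 1.3.4 and normalised gene counts by the DESeq2 method in DIANE, keeping genes with a count sum of at least 90. The values the authors deposited are a signal per gene: counts divided by 1 factor per library, not by gene length. Dividing each library by its smallest common unit gave whole counts (within 0.1 of the unit) for 100% of values, with library totals from 39739052 to 64062081. 1 count is not known to be 1 read, so no counting interval is given.

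The rule was applied to the deposited values. All 9 libraries entered 1 limma fit (version 3.58.1, R version 4.3.3) with a mean-variance trend and no block, after adding a pseudocount of 1 and taking log2. This scale understates changes of low genes. The p-values set each difference between root types against the spread between pooled samples, which limma estimates with help from all genes. The fit was tested on simulated data. Members and lists were chosen with earlier results of these data known. Identifiers were printed for the 2 members of lowest lateral share and for the 2 highest and 2 lowest in crown over primary log2 fold change, and for others singled out in the text. The alternatives changed the scaling, the limits of the rule, the pseudocount, the filter, the fit, the threshold and the libraries used. Sequences were not used.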

Additional observations from a re-analysis of the deposited data

How the results depend on the processing

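The median lateral root share stayed within the spread of the lateral root libraries in all 12 alternatives, and the number of members called between lateral and crown roots stayed within 1.5 times in all 20. The number of members was 66 with quantile normalisation and 66 with no limit between crown and primary roots, all 43 among them each time, and 172 and 12 with fold limits of 1.5 and 3. With each library left out it ran from 38 to 112. Equal totals gave 46 genes, 40 of them members. Counting held-out lateral root values below both others by any margin gave a mean of 93.9% over the 3 rounds, against 57.8% for at most 50%. The number of members called with each library left out was 22 to 42 for lateral against primary roots, 42 to 43 for lateral against crown roots and 0 to 1 for crown against primary roots. Over all 19754 genes, the fewest called lower in lateral than in primary roots by any of these fits was 69, and the most was 257. For lateral against crown roots the fewest called lower was 742 and the most 962. Genes called higher in crown than in primary roots numbered at least 15 and at most 66. The rule used the lateral root contrasts, so the counts of members are a description. For lateral against primary roots the number of members called was 22 without the mean-variance trend. For crown against primary roots it was 0 with voom on recovered counts, with only those root types in the fit, without the trend, and with either equal totals or quantile normalisation, and it was 5 at an adjusted p under 0.05, against 1.41% of all genes called higher. With equal totals the median log2 difference over all genes was 0.19 for lateral against crown roots and -0.20 for crown against primary roots. Chosen after seeing the data, leaving out each crown or primary root library gave 37 to 40 members with the higher mean in crown roots, equal totals 33 and quantile normalisation 40.

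The sources used here do not say that same-numbered replicates share plants, and 1 of 9 pairs of same-numbered libraries had deviations correlated over 0.1. With the replicate number as a block, 39 members were called between lateral and primary roots, 43 between lateral and crown roots and 1 between crown and primary roots. Over all 19754 genes the calls in the same directions were 164, 891 and 60, in that order. The count models planned on recovered counts were not run, since 1 count is not known to be 1 read. No library was left out of the held-out check, which already sets libraries aside. Depth limits the members of lowest level, whose lateral root values rest on few counts.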
